A study of Mus musculus with 4 samples.

Results

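Chromatin modifiers and remodellers are the proteins that write, erase and read chemical marks on histones and DNA or that move nucleosomes. They were taken here by gene symbol: the lysine demethylases (Kdm), lysine methyltransferases (Kmt and Setd, with Ehmt2), histone deacetylases (Hdac) and sirtuins (Sirt1 to Sirt7), the DNA methyltransferases (Dnmt) with Uhrf1, the Tet enzymes, the Polycomb repressive complex 2 (Ezh1, Ezh2, Eed and Suz12), the remodelling families (Smarc, Chd and Arid), bromodomain and PHD finger proteins (Brd and Phf), arginine methyltransferases (Prmt) and acetyltransferases (Kat, Ep300 and Crebbp). The rule found 125 of the 11027 genes in the deposited tables, and all 125 were compared. A further 12 annotated mouse genes that meet the rule were not analysed here (Arid3c, Chd5, Dnmt3c, Dnmt3l, Kat14, Kdm5d, Kmt5a, Kmt5b, Kmt5c, Phf24, Prmt8 and Smarca1).

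The 4 RNA-seq libraries came from CD4+ T cells of wild-type C57BL/6 mice aged 7 to 8 weeks, taken from spleen and lymph nodes. Naive cells were activated and transduced under neutral conditions, either with a Tox2 retrovirus that also encodes GFP or with a GFP-only one, and GFP+ cells were sorted and then cultured. The Tfh-like culture held antibodies to IFNγ, IL-4 and IL-2 together with IL-6, and the Th0 culture held the same 3 antibodies without IL-6. The 4 groups were therefore Tox2 or GFP in Tfh-like and Tox2 or GFP in Th0. Each group was 1 library, and the labels used here do not say how many mice it came from. Tox2 is a DNA-binding protein of the HMG-box family, and the study asked how raising it alters T follicular helper (Tfh) differentiation. The virus overexpresses it, and virus-coded and cellular transcripts cannot be told apart in these counts.

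In Tfh-like the total count was 13562334 with Tox2 and 13518274 with GFP, and in Th0 it was 13673774 with Tox2 and 13015283 with GFP. Tox2 itself had 32246 counts with Tox2 and 851 with GFP in Tfh-like, and 35297 with Tox2 and 144 with GFP in Th0, so its level matched the virus named for each library. All 8 markers of CD4 T cells that were looked for were listed. Their levels were summed in TMM-normalized CPM (counts scaled to the library total times its TMM factor). The sum was 5603 with Tox2 and 5505 with GFP in Tfh-like, and 5466 with Tox2 and 5449 with GFP in Th0. Single markers moved within it, by the edgeR test described below. With Tox2 Cd4 rose (log2 0.49, edgeR adjusted p = 0.0336) and Cd5 fell (-0.65, edgeR adjusted p = 0.0168). Cd28 rose in Tfh-like against Th0 (0.54, edgeR adjusted p = 0.0160), and the other markers passed in neither comparison. Of the B-cell markers 1 of 6 was listed (Cd79a, at 10 to 24 counts), of the natural killer markers 0 of 3, of the CD8 markers 1 of 2 (Cd8b1, at 127 to 206 counts), of the myeloid markers 3 of 7, of the dendritic markers 2 of 4 and of the erythroid markers 1 of 4.

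As background, Polycomb repressive complex 2 places a repressive methyl mark on histones through its catalytic subunit Ezh2 or Ezh1, and the demethylases Kdm6a and Kdm6b remove it. Dnmt3a and Dnmt3b methylate DNA anew, Dnmt1 with Uhrf1 copies the methylation after replication, and Tet1, Tet2 and Tet3 oxidise it. In helper T cells Polycomb repressive complex 2 and DNA methylation are known for keeping the cytokine and lineage genes of the other helper fates silent, and acetyltransferases such as Ep300, deacetylases and the SWI/SNF, ISWI and CHD remodelling complexes for opening and closing enhancers.

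Promoters are shown for the genes that passed the test for Tox2. RefSeq promoters (300 bases, from 250 before to 50 after the start) were found for 101 of the 125 genes. Of the 6 genes that passed for Tox2 they were found for Kdm7a, Chd6, Uhrf1 and Prmt1, and not for Kdm6b and Kmt2e. The 4 genes shown no longer passed with the trend of the folds with transcript length removed (values below), while Kdm6b did. The sequences are from build GRCm38.p6, on the gene's own strand: Kdm7a at chr6:39206724-39207023 (minus), Chd6 at chr2:161109037-161109336 (minus), Uhrf1 at chr17:56303087-56303386 (plus, the first of 2 entries) and Prmt1 at chr7:44986371-44986670 (minus). Capitals mark a match to the E2F letters TTTNNCGC.
Kdm7a: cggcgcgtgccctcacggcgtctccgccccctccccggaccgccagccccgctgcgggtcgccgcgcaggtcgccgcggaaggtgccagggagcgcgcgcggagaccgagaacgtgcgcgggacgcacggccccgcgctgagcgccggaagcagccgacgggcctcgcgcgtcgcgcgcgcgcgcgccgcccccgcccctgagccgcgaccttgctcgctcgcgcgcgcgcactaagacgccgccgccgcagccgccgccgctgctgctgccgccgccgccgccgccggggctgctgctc
Chd6: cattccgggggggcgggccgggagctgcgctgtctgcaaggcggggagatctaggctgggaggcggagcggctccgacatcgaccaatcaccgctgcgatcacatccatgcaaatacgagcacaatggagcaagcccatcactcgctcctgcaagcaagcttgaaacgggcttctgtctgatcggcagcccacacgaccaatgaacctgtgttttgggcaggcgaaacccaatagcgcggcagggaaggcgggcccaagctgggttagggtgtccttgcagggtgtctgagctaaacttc
Uhrf1: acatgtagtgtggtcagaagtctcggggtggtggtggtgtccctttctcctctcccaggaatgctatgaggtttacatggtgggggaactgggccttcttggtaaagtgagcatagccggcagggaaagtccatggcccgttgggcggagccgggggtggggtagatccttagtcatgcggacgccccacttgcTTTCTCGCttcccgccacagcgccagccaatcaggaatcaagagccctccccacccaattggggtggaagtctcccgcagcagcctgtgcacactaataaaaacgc
Prmt1: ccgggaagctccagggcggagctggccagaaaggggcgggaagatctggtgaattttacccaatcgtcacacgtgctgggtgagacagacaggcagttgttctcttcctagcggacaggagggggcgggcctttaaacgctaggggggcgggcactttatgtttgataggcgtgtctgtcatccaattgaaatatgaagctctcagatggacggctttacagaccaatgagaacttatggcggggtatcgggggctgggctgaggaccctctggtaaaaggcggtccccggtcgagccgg
The Kdm7a window held 65 CpG dinucleotides, against 20 for Chd6, 12 for Uhrf1 and 17 for Prmt1, beside a median of 24 over the promoters of the chromatin genes and of 21 over all 8878 promoters of listed genes. Of these 4 windows the E2F letters were in that of Uhrf1 (searched on both strands, as TTTNNCGC), and the STAT letters TTCNNNGAA and the AP-1 letters TGANTCA were in none. E2F letters were in 8.91% of the chromatin promoters and 8.73% of all promoters, STAT letters in 6.93% and 6.70%, and AP-1 letters in 4.95% and 4.70%. A letter match is a description of the window and not a bound site.

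Nearly all of the chromatin genes were well measured. The lowest count of any of them in any library was 13, and 121 of 125 had at least 100 counts in all 4 libraries. On the authors' FPKM scale, which is per length, the mean over the libraries ran from 0.206 for Smarcd3, a SWI/SNF subunit, to 97.5 for Chd4, the motor of the NuRD complex. The median was 9.95 FPKM, and 62 of 125 were above 10. Chd4 had 97.5 FPKM with Tox2 and 94.3 with GFP in Tfh-like, and 107 with Tox2 and 91.2 with GFP in Th0. Hdac7, a class IIa deacetylase prominent in T cells, followed with 81.9 FPKM with Tox2 and 88.9 with GFP in Tfh-like, and 86.8 with Tox2 and 101 with GFP in Th0. Both genes were high in every library. Next in mean FPKM came the lysine methyltransferase Ehmt2 (55.2), the SWI/SNF subunit Smarcd2 (54.6), Dnmt1 (46.4) and Uhrf1 (45.1). Smarcd3, the demethylase Kdm4d (0.488) and the deacetylases Hdac11 (0.654) and Hdac9 (0.733) were the lowest. Smarcd3 is uncertain, because 48.2% of its exon bases overlap those of Chpf2 on the other strand and the strand setting of the counting is not given in the sources used here. The same holds for Phf1 with Cuta (39.3%) and Kat5 with Rnaseh2c (12.1%), and 51.8% of the exon bases of Setd1a are shared with Gm49388 on its own strand, while the other overlaps with a listed gene took under 10% of a gene's exon bases.

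**Figure D1:**
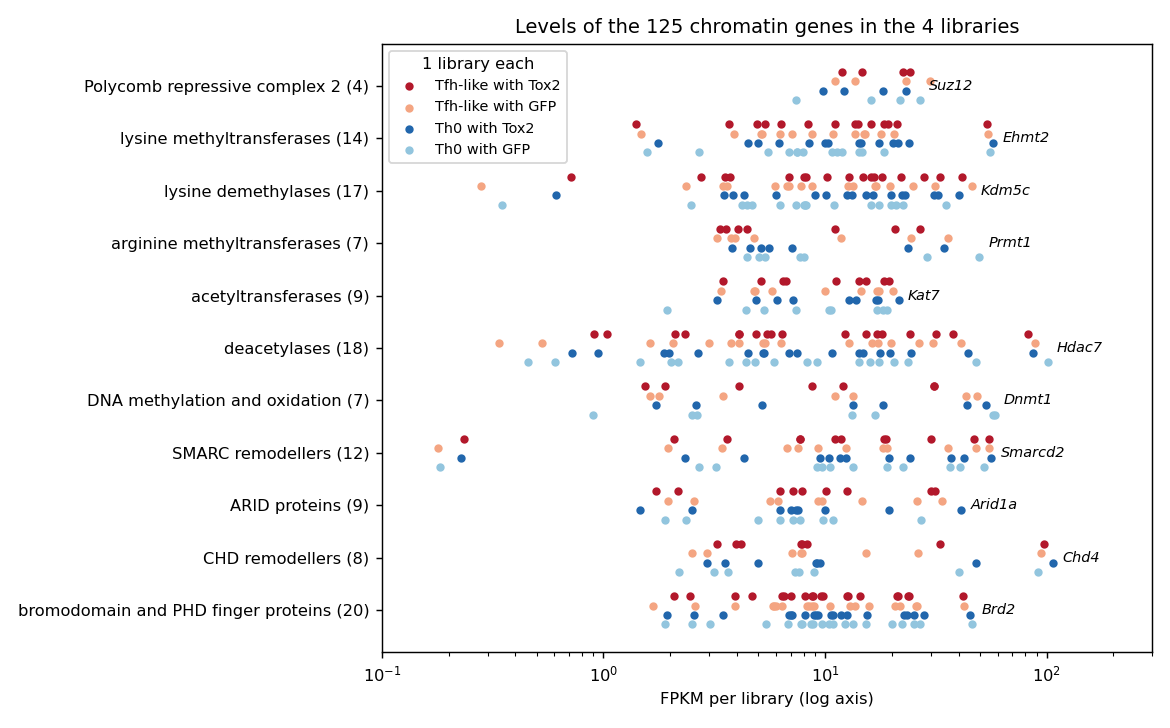
FPKM of each of the 125 chromatin genes in each of the 4 libraries (log axis, 1 dot per gene and library), by group of genes with the number of genes in brackets; the gene with the highest mean of each group is named. The levels run from below 1 FPKM to about 107 FPKM for Chd4, and the 4 libraries cover nearly the same range in every group.

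For the pairs of related enzymes given next, the same member was the higher one in every library. This did not hold for Chd7 and Chd8. The Chd7 to Chd8 ratio was 0.533 with Tox2 and 2.16 with GFP in Tfh-like, and 0.372 with Tox2 and 0.478 with GFP in Th0. Ezh2 had more FPKM than Ezh1 in every library, with an Ezh1 to Ezh2 ratio of 0.612 with Tox2 and 0.375 with GFP in Tfh-like, and of 0.539 with Tox2 and 0.341 with GFP in Th0. The ratio was higher in both Tox2 libraries than in both GFP libraries. Smarca4, the main SWI/SNF motor, exceeded its relative Smarca2, with a Smarca2 to Smarca4 ratio of 0.120 with Tox2 and 0.0956 with GFP in Tfh-like, and of 0.117 with Tox2 and 0.0883 with GFP in Th0. Ep300 exceeded its relative Crebbp. That ratio was 4.43 in Tfh-like and 2.63 in Th0 under Tox2, and 5.13 in Tfh-like and 2.35 in Th0 under GFP, so it was higher in both Tfh-like libraries. The Hdac2 to Hdac1 ratio was 0.327 in Tfh-like and 0.444 in Th0 under Tox2, and 0.313 in Tfh-like and 0.425 in Th0 under GFP, so it was lower in both Tfh-like libraries. These ratios are levels with no test.

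Few chromatin genes differed with Tox2 over both cultures. Kdm6b rose most among those that passed, and the demethylase Kdm7a, the histone-binding Kmt2e and the remodeller Chd6 rose with it, while Uhrf1, the partner of Dnmt1, and Prmt1, the main arginine methyltransferase, fell. In an additive fit of culture and virus (edgeR quasi-likelihood test, 10960 genes compared, Benjamini-Hochberg adjusted p under 0.05) 4 of the 125 rose and 2 fell, or 3.2% and 1.6%, against 4.07% and 2.74% of all genes compared. The share of chromatin genes that passed in either direction, 4.8%, was below the 6.81% of all genes. At an unadjusted p under 0.05 the counts were 47 of 125 (37.6%) and 27.4% of all genes. The fit has 1 residual degree of freedom, since no group has a replicate, and its p-values set each coefficient against a spread estimated from how far the 4 libraries depart from additivity, moderated across genes, which may be technical. With libraries scaled by the sum of listed counts 11 rose and 3 fell (8.8% and 2.4%), as did 6.21% and 4.67% of all genes. In bulk RNA fewer cells of a type and less RNA per cell cannot be told apart.

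Kdm6b (chromosome 11, 69398508 to 69413675, minus strand, mm10), which removes the Polycomb mark, had 1479 counts with Tox2 and 886 with GFP in Tfh-like, and 1979 with Tox2 and 954 with GFP in Th0. Both Tox2 libraries lay above both GFP libraries. Its log2 fold on the scale of TMM-normalized CPM with a prior count of 2 was 0.70 (95% counting interval 0.58 to 0.83) in Tfh-like and 1.004 (0.89 to 1.12) in Th0, and over both cultures 0.86 (SE 0.12, edgeR adjusted p = 0.0146), a ratio of 1.81. Such counting intervals cover the sampling of reads and nothing between cultures. Its relative Kdm6a, with the same substrate, had 1145 counts with Tox2 and 936 with GFP in Tfh-like, and 1461 with Tox2 and 1058 with GFP in Th0, and did not pass (log2 0.34, SE 0.11, edgeR adjusted p = 0.105). Kdm7a, a demethylase of repressive histone marks whose CpG-rich promoter is printed above, had 588 counts with Tox2 and 388 with GFP in Tfh-like, and 666 with Tox2 and 423 with GFP in Th0. Its folds were nearly equal in the cultures, 0.56 (0.38 to 0.75) in Tfh-like and 0.61 (0.43 to 0.79) in Th0, and 0.59 over both (SE 0.11, edgeR adjusted p = 0.0309).

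Kmt2e, an MLL-family protein that binds a histone mark of active promoters, had 3644 counts with Tox2 and 2578 with GFP in Tfh-like, and 4320 with Tox2 and 2616 with GFP in Th0. The Tox2 libraries were again the higher ones in both cultures (log2 0.46 in Tfh-like, 0.68 in Th0, 0.57 over both, SE 0.11, edgeR adjusted p = 0.0315). A stretch of 9.31% of its exon bases overlaps Srpk2 on the other strand. Chd6, an ATP-driven remodeller, had 1254 counts with Tox2 and 912 with GFP in Tfh-like, and 1633 with Tox2 and 1025 with GFP in Th0 (log2 0.42, 0.62 and over both 0.52, SE 0.11, edgeR adjusted p = 0.041). The groups did not overlap for either gene. Uhrf1, which brings Dnmt1 to newly copied DNA, had 2197 counts with Tox2 and 3356 with GFP in Tfh-like, and 3202 with Tox2 and 4143 with GFP in Th0. Its fall was present in both cultures (log2 -0.65 in Tfh-like, -0.42 in Th0, -0.53 over both, SE 0.11, edgeR adjusted p = 0.0387), although Th0 with Tox2 was close to Tfh-like with GFP. Prmt1 had 1525 counts with Tox2 and 2002 with GFP in Tfh-like, and 2035 with Tox2 and 2894 with GFP in Th0 (log2 -0.43, -0.56 and over both -0.49, SE 0.10, edgeR adjusted p = 0.0406). Its lowest library was Tfh-like with Tox2 and its highest Th0 with GFP.

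**Figure D2:**
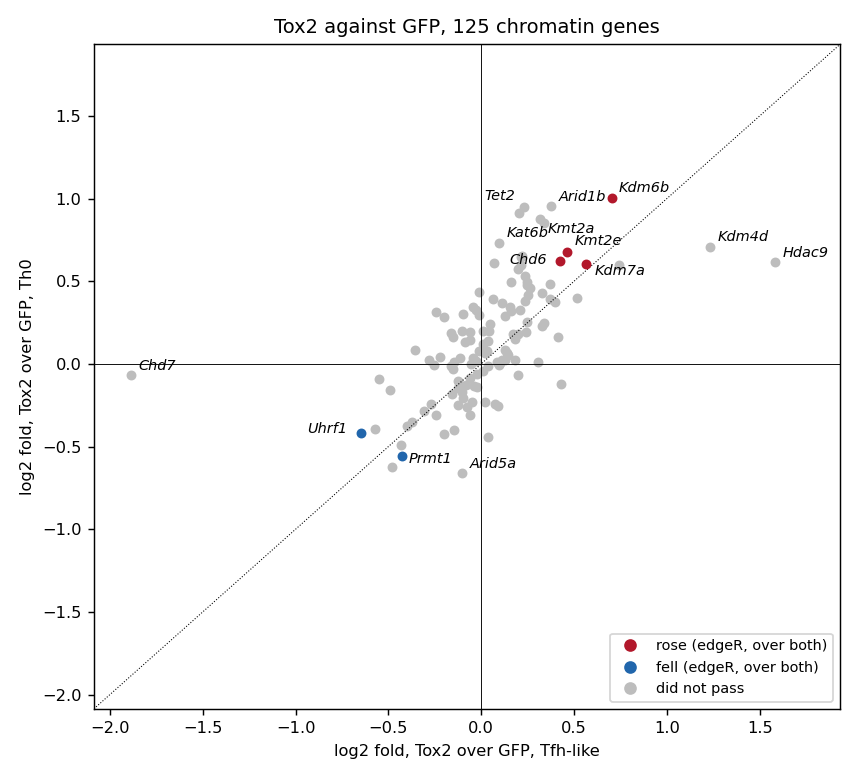
Log2 fold of Tox2 over GFP for each of the 125 chromatin genes, in Tfh-like (x axis) and in Th0 (y axis), on TMM-normalized CPM with a prior count of 2; colours mark the genes that rose or fell in the edgeR test over both cultures and the dotted line marks equal folds. The 6 genes that passed lie near the dotted line, Chd7 lies far to the left (-1.89 in Tfh-like, -0.07 in Th0), and Tet2, Arid1b and Kmt2a lie above the line.

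Transcript length moved with the Tox2 folds, and each of these results is given with it. Across the 125 chromatin genes of these libraries the Spearman correlation of the Tox2 fold with length was 0.288 in Tfh-like and 0.522 in Th0, and across all 10960 genes it was 0.125 in Tfh-like and 0.301 in Th0. Chromatin genes are long, with a median longest transcript of 4998 bases against 3383 bases for all genes compared. With the length trend of each library removed, 1 chromatin gene rose and 0 fell (0.8% and 0%, against 1.92% and 1.18% of all genes): Kdm6b stayed past the threshold (log2 0.78, edgeR adjusted p = 0.0393). Kdm7a (0.0766), Kmt2e (0.0693), Chd6 (0.139), Uhrf1 (0.0603) and Prmt1 (0.0608) no longer had an edgeR adjusted p under 0.05. Their log2 folds were then 0.45, 0.43, 0.28, -0.53 and -0.46. Over the 9 alternatives run, the adjusted p ran between 0.000385 and 0.0393 for Kdm6b, 0.0137 and 0.161 for Kdm7a, 0.00984 and 0.0693 for Kmt2e, 0.0167 and 0.139 for Chd6, 0.0138 and 0.0603 for Uhrf1, and 0.0207 and 0.0608 for Prmt1 (edgeR, DESeq2 or limma). Other named genes missed the threshold in the reported fit and passed for Tox2 under at least 1 alternative. Over the same 9 alternatives the adjusted p (edgeR, DESeq2 or limma) ran between 0.0119 and 0.106 for Arid1b, 0.0187 and 0.142 for Kmt2a, 0.0233 and 0.151 for Hdac9, 0.0364 and 0.212 for Tet2, and 0.0366 and 0.287 for Prmt7. The part of RNA quality in the length trend was not tested.

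The lysine demethylases, taken as the 17 Kdm symbols, were the group with the highest median Tox2 fold, which was noticed after the values were seen. The demethylase Phf2 was grouped with the PHD finger proteins, and its ratio of Tox2 to GFP was 0.959 in Tfh-like and 1.14 in Th0. Their median log2 fold was 0.21 in Tfh-like and 0.48 in Th0, with 13 and 15 of 17 above 0, against 0.04 and 0.09 over all 125 chromatin genes and 0.00 in both cultures over all genes compared. In 10 of the 17 both Tox2 libraries lay above both GFP libraries and in 1 below them, where 19.5% of all genes compared lay above and 17.2% below. Kdm6b and Kdm7a passed the test (11.8%, against 4.07% of all genes compared that rose) and the other 15 did not. Kdm3a, which removes a repressive methyl mark, had 2995 counts with Tox2 and 2257 with GFP in Tfh-like, and 3248 with Tox2 and 2249 with GFP in Th0 (edgeR adjusted p = 0.0552). Kdm8, at 109 counts with Tox2 and 141 with GFP in Tfh-like and 144 with Tox2 and 181 with GFP in Th0, lay the other way. Kdm1a, the flavin-dependent demethylase, had folds of -0.13 in Tfh-like and -0.10 in Th0. With the length trend removed the medians of the group were 0.12 in Tfh-like and 0.28 in Th0, with 13 and 14 of 17 above 0. Both Tox2 libraries then lay above both GFP libraries in 8 of the 17 and below them in 1, where 18% of all genes lay above and 17.1% below. The summed FPKM of the 17 genes was 247 with Tox2 and 227 with GFP in Tfh-like, and 263 with Tox2 and 197 with GFP in Th0.

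**Figure D3:**
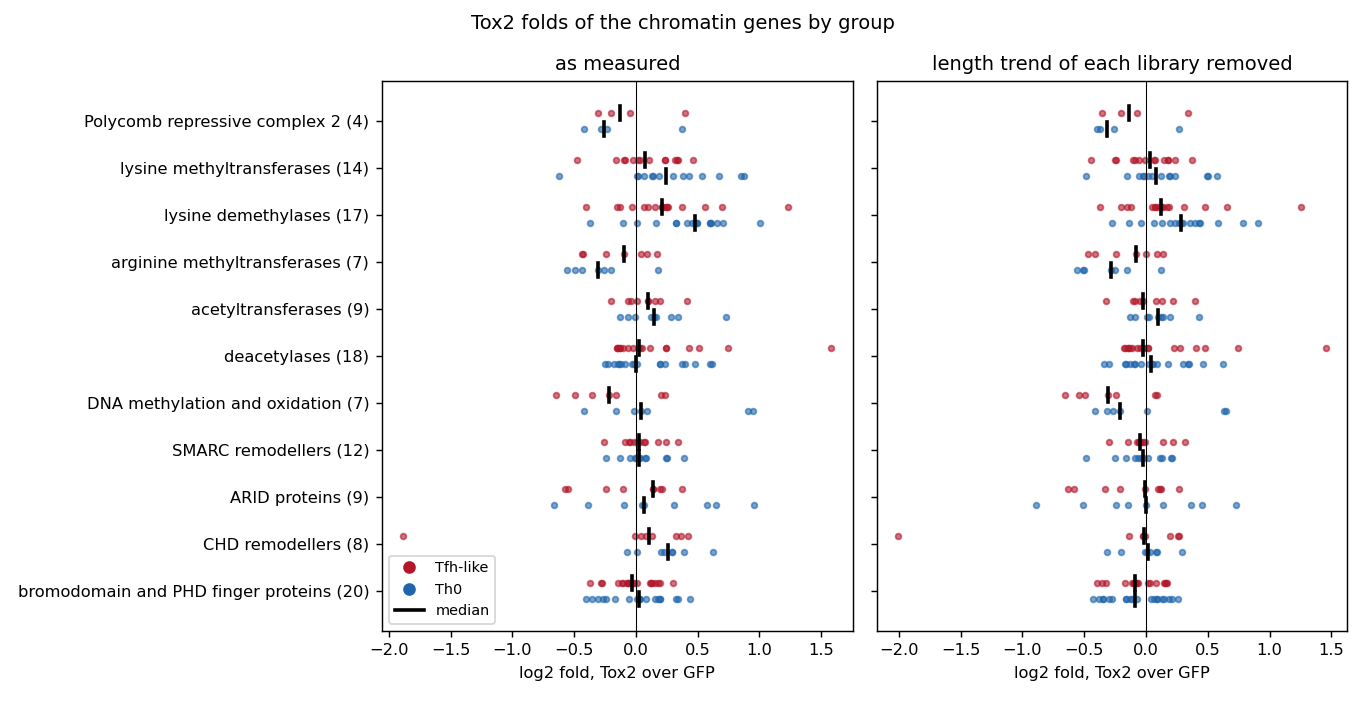
Log2 fold of Tox2 over GFP of each chromatin gene by group (dots; Tfh-like above Th0 in each row, black bar the median), as measured on the left and with the length trend of each library removed on the right. The lysine demethylases have medians of 0.21 in Tfh-like and 0.48 in Th0 as measured and of 0.12 and 0.28 with the trend removed, and the median of all 125 genes moves to -0.02 in Tfh-like and 0.02 in Th0.

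Of the 14 lysine methyltransferases 1 passed for Tox2, Kmt2e, which rose (7.14%, against 4.07% of all genes compared). Of the 7 DNA methylation and oxidation genes 1 passed, Uhrf1, which fell (14.3%, against 2.74% of all genes compared). The median fold of the lysine methyltransferases was 0.07 in Tfh-like, with 9 of the 14 above 0, and 0.24 in Th0, with 13 of the 14 above 0. Of all genes compared 49.8% lay above 0 in Tfh-like and 49.9% in Th0. With the length trend removed the medians of the group were 0.03 in Tfh-like and 0.08 in Th0, with 7 and 9 of the 14 above 0. Kmt2a, the founding MLL enzyme, had 3771 counts with Tox2 and 2951 with GFP in Tfh-like, and 5794 with Tox2 and 3054 with GFP in Th0. Its fold was thus mainly a matter of the Th0 library with Tox2 (0.32 in Tfh-like, 0.88 in Th0, edgeR adjusted p = 0.0625). Kmt2d, which marks enhancers, had 5327 counts with Tox2 and 4409 with GFP in Tfh-like, and 6032 with Tox2 and 4030 with GFP in Th0 (edgeR adjusted p = 0.0905). Ehmt2, which writes a repressive mark, was level, with 4890 counts with Tox2 and 4858 with GFP in Tfh-like, and 5420 with Tox2 and 5174 with GFP in Th0. Tet2, an enzyme that oxidises DNA methylation, had 1148 counts with Tox2 and 953 with GFP in Tfh-like, and 1510 with Tox2 and 756 with GFP in Th0, and Tet1 had 485 with Tox2 and 410 with GFP in Tfh-like, and 461 with Tox2 and 236 with GFP in Th0. Neither passed (edgeR adjusted p = 0.0918 and 0.118), and for both the Th0 library with GFP was the lowest. Tet3, at 3323 counts with Tox2 and 3631 with GFP in Tfh-like and 3856 with Tox2 and 3769 with GFP in Th0, had an edgeR adjusted p of 0.613.

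Within Polycomb repressive complex 2 none of the 4 genes passed for Tox2, where 6.81% of all genes compared passed. Ezh2 had 2670 counts with Tox2 and 3228 with GFP in Tfh-like, and 2091 with Tox2 and 2467 with GFP in Th0 (log2 -0.30 over both, SE 0.10, edgeR adjusted p = 0.115). Ezh1 had 1821 counts with Tox2 and 1349 with GFP in Tfh-like, and 1255 with Tox2 and 938 with GFP in Th0 (log2 0.38, SE 0.10, edgeR adjusted p = 0.0724). The folds of these alternative catalytic subunits had opposite signs in each culture. Eed, the subunit that reads the mark, had 758 counts with Tox2 and 851 with GFP in Tfh-like, and 807 with Tox2 and 1047 with GFP in Th0, and the scaffold Suz12 had 1846 with Tox2 and 1864 with GFP in Tfh-like, and 1981 with Tox2 and 2249 with GFP in Th0. Their edgeR adjusted p was 0.127 and 0.433. The arginine methyltransferases had a median fold of -0.10 in Tfh-like and -0.31 in Th0, and of -0.08 and -0.29 with the length trend removed. Besides Prmt1 none of the 7 passed (14.3% lower, against 2.74% of all genes compared). Prmt5, the symmetric dimethylating enzyme, had 1360 counts with Tox2 and 1573 with GFP in Tfh-like, and 1619 with Tox2 and 1938 with GFP in Th0 (edgeR adjusted p = 0.14). Prmt7, which adds a single methyl group, had an edgeR adjusted p of 0.0521.

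Acetylation enzymes gave 0 of 9 acetyltransferases and 0 of 18 deacetylases for Tox2 in the edgeR test. Remodellers gave 0 of 12 Smarc genes, 0 of 9 Arid genes and 1 of 8 Chd genes (12.5%). Of all genes compared 6.81% passed in either direction, and these groups are small. Hdac9, a class IIa deacetylase at a low level, had 253 counts with Tox2 and 81 with GFP in Tfh-like, and 240 with Tox2 and 151 with GFP in Th0. Both Tox2 libraries were higher, but the size of the fold differed (1.58, 1.24 to 1.99, in Tfh-like and 0.61, 0.32 to 0.92, in Th0), and the gene did not pass (log2 1.09, SE 0.26, edgeR adjusted p = 0.0579). Hdac1, Hdac3 and Hdac7 had folds between -0.25 and 0.01 in both cultures. Arid1b, a SWI/SNF subunit that binds DNA, had 2636 counts with Tox2 and 1980 with GFP in Tfh-like, and 4210 with Tox2 and 2101 with GFP in Th0, and an edgeR adjusted p of 0.0513. Its relative Arid1a had 5701 with Tox2 and 4856 with GFP in Tfh-like, and 8158 with Tox2 and 5297 with GFP in Th0 (edgeR adjusted p = 0.106). For both genes the Th0 library with Tox2 was the highest of the 4. Smarca4 (folds of -0.26 in Tfh-like and -0.01 in Th0), Smarca2 (0.07 and 0.39) and Chd4 (0.04 and 0.20) did not pass.

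By single pairs of libraries, where there is no test, a gene counted as 2-fold apart if it had a log2 fold of 1 or more in either direction and a counting interval that left out 0. In Tfh-like 3 chromatin genes were 2-fold apart between Tox2 and GFP (2.4%, against 4.75% of all genes compared): Hdac9 and Kdm4d were higher (1.6%, against 2.86%) and Chd7 lower (0.8%, against 1.9%) with Tox2. Kdm4d rests on 34 counts with Tox2 and 13 with GFP in Tfh-like, and 30 with Tox2 and 17 with GFP in Th0. In Th0 the only one was Kdm6b, which was higher (0.8%, against 3.18% of all genes higher and 4.74% in either direction), just inside the limit at 1.004, with Arid1b and Tet2 just outside at 0.95 each. After Chd7, the lowest Tox2 folds in Tfh-like were those of Uhrf1 (-0.65) and Arid3b (-0.57). The lower end of the Th0 folds was held by Arid5a (-0.66), Setd6 (-0.63) and Prmt1 (-0.56). Of the 125 genes, 42 had both Tox2 libraries above both GFP libraries (33.6%, against 19.5% of all genes) and 14 had both below (11.2%, against 17.2%). With the length trend removed these counts were 29 (23.2%, against 18% of all genes) and 20 (16%, against 17.1%).

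**Figure D4:**
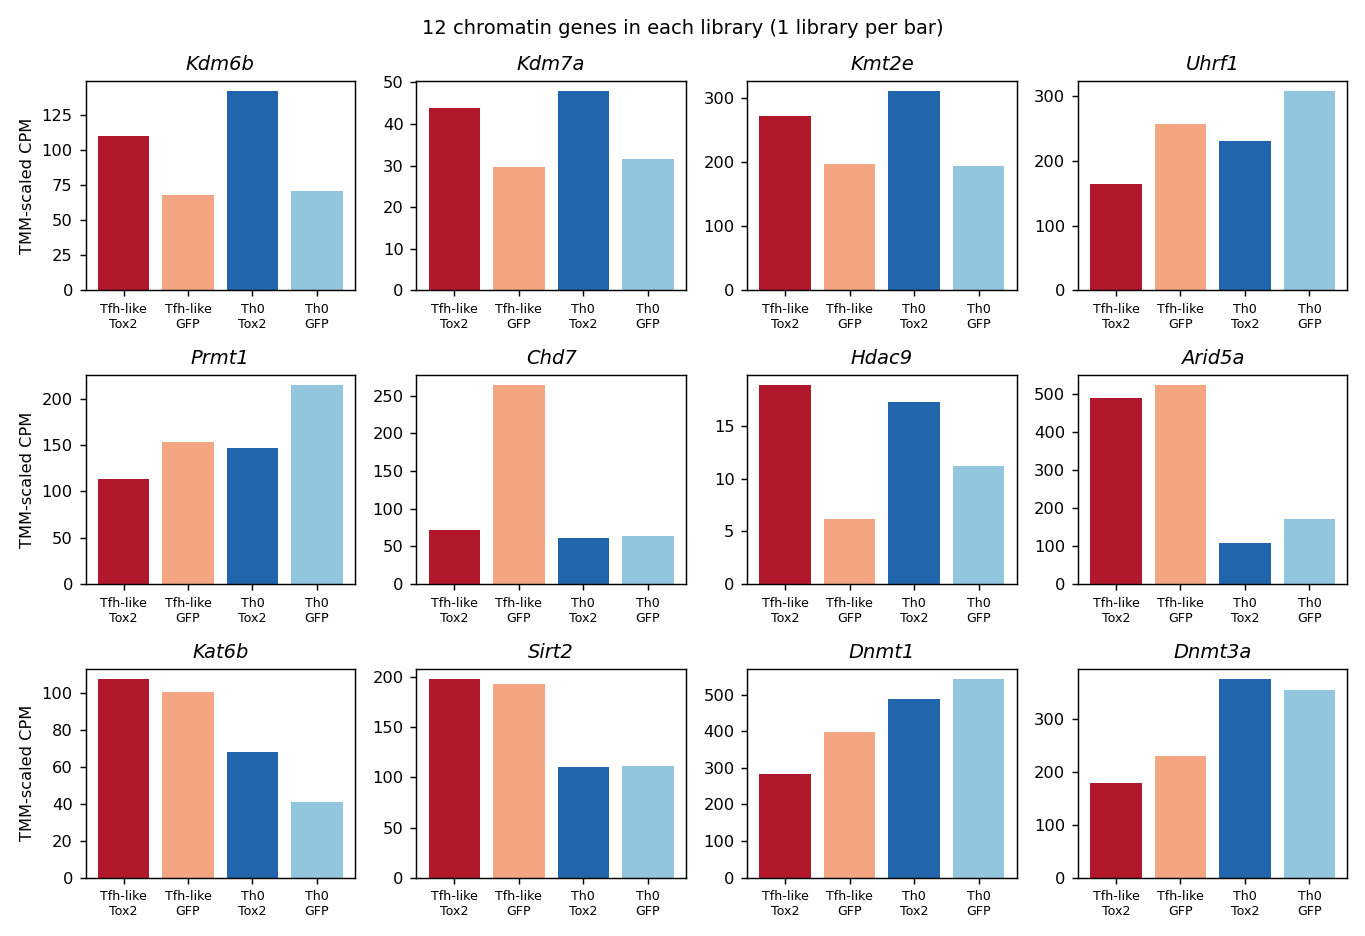
TMM-normalized CPM of 12 chromatin genes in each of the 4 libraries (1 bar per library, linear axes that start at 0 and differ between panels). The Tox2 bars exceed the GFP bars for Kdm6b, Kdm7a and Kmt2e and lie below them within each culture for Uhrf1 and Prmt1, Arid5a, Kat6b and Sirt2 are higher in both Tfh-like libraries, Dnmt1 and Dnmt3a are lower there, and Chd7 stands out in Tfh-like with GFP alone.

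Chromatin genes differed more with the culture, in both directions and at about the rate of all genes. Arid5a rose most in Tfh-like, followed by the acetyltransferase Kat6b and the deacetylases Sirt2, Hdac4 and Hdac5, and both Polycomb methyltransferases rose. All 3 DNA methyltransferases fell, together with Uhrf1, Hdac2, Phf6, Prmt7 and Chd3. In the same edgeR fit 14 of 125 rose and 15 fell (11.2% and 12%), against 14.3% and 9.96% of all genes compared, and 29 passed in either direction (23.2%, against 24.2%). With libraries scaled by the sum of listed counts 13 rose and 22 fell (10.4% and 17.6%), as did 13.7% and 15% of all genes. At an unadjusted p under 0.05 the shares were 36.8% of the chromatin genes and 37.6% of all genes. The median log2 fold of the 125 was -0.13 with Tox2 and -0.05 with GFP, against 0.00 and -0.01 over all genes compared. Both Tfh-like libraries lay above both Th0 libraries for 22 of 125 (17.6%, against 27.6% of all genes) and below them for 38 (30.4%, against 25.1%). The 2 comparisons use the same 4 libraries: 2 genes, Uhrf1 and Prmt1, fell in both tests, no other gene passed both, and 92 passed neither.

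**Figure D5:**
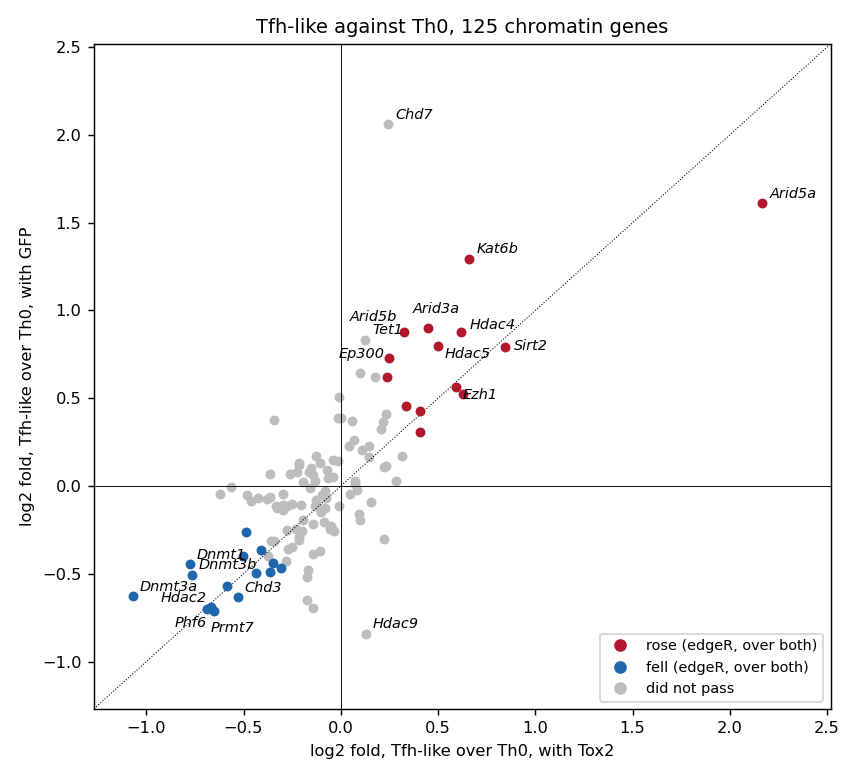
Log2 fold of Tfh-like over Th0 for each of the 125 chromatin genes, with Tox2 (x axis) and with GFP (y axis), on TMM-normalized CPM with a prior count of 2; colours mark the genes that rose or fell in the edgeR test over both viruses. Arid5a is far to the upper right (2.17 with Tox2, 1.61 with GFP), Dnmt3a to the lower left (-1.07 and -0.63), and Chd7 lies high above the dotted line of equal folds (0.24 with Tox2, 2.06 with GFP).

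Arid5a (chromosome 1, 36307733 to 36324029, plus strand, mm10), an ARID protein that also binds RNA and is known to stabilise Il6 mRNA, had with Tox2 6543 counts in Tfh-like and 1510 in Th0, and with GFP 6852 in Tfh-like and 2309 in Th0. Both Tfh-like libraries were far above both Th0 libraries, with a log2 fold of 1.89 over both viruses (SE 0.15, edgeR adjusted p = 0.000548), a ratio of 3.70. Arid3a, a DNA-binding relative best known from B cells, had with Tox2 929 counts in Tfh-like and 707 in Th0, and with GFP 1326 in Tfh-like and 730 in Th0 (log2 0.68, SE 0.13, edgeR adjusted p = 0.0141). Arid5b, a partner of the Phf2 demethylase, had with Tox2 1314 counts in Tfh-like and 1089 in Th0, and with GFP 1517 in Tfh-like and 848 in Th0 (log2 0.60, SE 0.15, edgeR adjusted p = 0.0305). For both genes Tfh-like with GFP was the highest library. The other 6 Arid genes did not pass for the culture. Thus 3 of 9 rose and 0 fell (33.3% and 0%, against 14.3% and 9.96% of all genes compared).

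Among the acetyltransferases Kat6b and Ep300 rose and Crebbp fell. Kat6b, a histone acetyltransferase of the MYST family, had with Tox2 1443 counts in Tfh-like and 948 in Th0, and with GFP 1315 in Tfh-like and 551 in Th0 (log2 0.97, SE 0.16, edgeR adjusted p = 0.00766). Its relative Kat6a had with Tox2 1716 counts in Tfh-like and 2186 in Th0, and with GFP 1501 in Tfh-like and 1664 in Th0 (log2 -0.20, edgeR adjusted p = 0.218). Ep300 rose (log2 0.49, SE 0.14, edgeR adjusted p = 0.0434) with 3623 counts in Tfh-like and 3164 in Th0 under Tox2, and 4057 in Tfh-like and 2519 in Th0 under GFP. Crebbp, its closest relative, fell (log2 -0.45, SE 0.10, edgeR adjusted p = 0.0219) with 775 counts in Tfh-like and 1142 in Th0 under Tox2, and 750 in Tfh-like and 1017 in Th0 under GFP. The groups did not overlap for Kat6b, Ep300 and Crebbp.

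Of the 18 deacetylases 4 rose and 1 fell in Tfh-like (22.2% and 5.56%, against 14.3% and 9.96% of all genes compared). Sirt2, a mainly cytoplasmic NAD-dependent deacetylase, had with Tox2 2657 counts in Tfh-like and 1536 in Th0, and with GFP 2526 in Tfh-like and 1499 in Th0. Its folds were alike with Tox2 (0.84, 0.75 to 0.94) and with GFP (0.79, 0.70 to 0.89), and 0.82 over both (SE 0.10, edgeR adjusted p = 0.00234). Hdac4 and Hdac5, class IIa enzymes that shuttle between nucleus and cytoplasm, rose by 0.75 (SE 0.11, edgeR adjusted p = 0.00529) and 0.65 (SE 0.12, edgeR adjusted p = 0.00982) on the log2 scale. Hdac4 had 1073 counts in Tfh-like and 725 in Th0 under Tox2, and 968 in Tfh-like and 542 in Th0 under GFP. Hdac5 had 2225 in Tfh-like and 1635 in Th0 under Tox2, and 2334 in Tfh-like and 1379 in Th0 under GFP. Sirt6, a chromatin-bound sirtuin, rose by 0.39 (edgeR adjusted p = 0.0352). Hdac2, a class I enzyme of corepressor complexes, fell (log2 -0.68, SE 0.10, edgeR adjusted p = 0.0052) with 916 counts in Tfh-like and 1510 in Th0 under Tox2, and 933 in Tfh-like and 1550 in Th0 under GFP. Its partner Hdac1 did not pass (log2 -0.24, edgeR adjusted p = 0.128), nor did Hdac3, Hdac7 or Sirt1 (edgeR adjusted p = 0.699, 0.324 and 0.113).

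The DNA methylation genes had the lowest median culture fold of the groups with Tox2 (-0.49), and -0.26 with GFP. Dnmt3a, a methyltransferase that acts on unmethylated DNA, had with Tox2 2407 counts in Tfh-like and 5243 in Th0, and with GFP 3004 in Tfh-like and 4777 in Th0. Its log2 fold was -1.07 (-1.14 to -0.9995) with Tox2 and -0.63 (-0.69 to -0.56) with GFP, and -0.85 over both (SE 0.13, edgeR adjusted p = 0.00582). Dnmt1, the maintenance enzyme, had with Tox2 3802 counts in Tfh-like and 6763 in Th0, and with GFP 5208 in Tfh-like and 7305 in Th0 (log2 -0.61, SE 0.12, edgeR adjusted p = 0.0122). In both genes Tfh-like with Tox2 was the lowest library. Dnmt3b, at a lower level, had with Tox2 130 counts in Tfh-like and 231 in Th0, and with GFP 148 in Tfh-like and 217 in Th0 (log2 -0.64, SE 0.18, edgeR adjusted p = 0.042). Uhrf1 fell by 0.38 on the log2 scale (SE 0.11, edgeR adjusted p = 0.047), and Tet1, Tet2 and Tet3 did not pass (edgeR adjusted p = 0.114, 0.976 and 0.579). In this small group 0 of 7 rose and 4 fell (0% and 57.1%, against 14.3% and 9.96% of all genes compared). The summed FPKM of the 7 genes was 90.3 in Tfh-like and 138 in Th0 under Tox2, and 123 in Tfh-like and 152 in Th0 under GFP.

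Proliferation genes moved with these results. All 20 genes of a proliferation list were listed, and 0 rose and 13 fell in Tfh-like against Th0 (65% lower, against 9.96% of all genes compared), while 0 rose and 3 fell with Tox2 against GFP (Mcm3, Mcm5 and Gins2; 15% lower, against 2.74%). Their summed TMM-normalized CPM was 3829 with Tox2 and 4570 with GFP in Tfh-like, and 5087 with Tox2 and 6053 with GFP in Th0. That order of the libraries is the order of the Dnmt1 counts and, with Th0 with Tox2 and Tfh-like with GFP exchanged, that of the Uhrf1 counts. Dnmt1 and Uhrf1 act on replicating DNA and are known to be highest in dividing cells, and the part of cell division in their values was not tested.

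Polycomb subunits and the writers of other histone marks gave a mixed picture for the culture. Ezh2 rose in Tfh-like (log2 0.42, SE 0.10, edgeR adjusted p = 0.0247) with 2670 counts in Tfh-like and 2091 in Th0 under Tox2, and 3228 in Tfh-like and 2467 in Th0 under GFP. Ezh1 rose too (log2 0.58, SE 0.10, edgeR adjusted p = 0.00911) with 1821 in Tfh-like and 1255 in Th0 under Tox2, and 1349 in Tfh-like and 938 in Th0 under GFP. So 2 of the 4 genes of the complex rose and 0 fell (50% and 0%, against 14.3% and 9.96% of all genes compared). Eed and Suz12 did not pass (edgeR adjusted p = 0.366 and 0.381), and Phf19, an accessory Polycomb-like subunit, fell (log2 -0.58, SE 0.11, edgeR adjusted p = 0.0105) with 392 counts in Tfh-like and 611 in Th0 under Tox2, and 495 in Tfh-like and 756 in Th0 under GFP. Among the demethylases Kdm5b, which erases a mark of active promoters, rose (log2 0.43, SE 0.12, edgeR adjusted p = 0.0482), and the other 16 did not pass, Kdm6a and Kdm6b included (edgeR adjusted p = 0.186 and 0.224). Thus 1 of 17 rose and 0 fell (5.88% and 0%, against 14.3% and 9.96% of all genes compared). Setd3, an actin-modifying methyltransferase, rose by 0.36 and Setd1b, a writer of a promoter mark, fell by 0.39 on the log2 scale (edgeR adjusted p = 0.0465 and 0.0351). Kmt2a, Kmt2d and Ehmt2 did not pass (edgeR adjusted p = 0.204, 0.906 and 0.632). Of the arginine methyltransferases Prmt2 rose (log2 0.58, edgeR adjusted p = 0.0115) and Prmt7 and Prmt1 fell (log2 -0.68 and -0.43, edgeR adjusted p = 0.0059 and 0.026), while Prmt5 did not pass (edgeR adjusted p = 0.152). Here 1 of 7 rose and 2 fell (14.3% and 28.6%, against 14.3% and 9.96% of all genes compared). Prmt7 had 362 counts in Tfh-like and 592 in Th0 under Tox2, and 478 in Tfh-like and 806 in Th0 under GFP.

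The remodellers and readers that passed for the culture fell, apart from the 3 Arid genes above. Phf6, a PHD finger protein recurrently mutated in human T-cell leukaemia, had with Tox2 1105 counts in Tfh-like and 1848 in Th0, and with GFP 941 in Tfh-like and 1577 in Th0 (log2 -0.70, SE 0.10, edgeR adjusted p = 0.0047). Its folds were -0.69 with Tox2 and -0.70 with GFP. Chd3, a NuRD motor, had with Tox2 4647 counts in Tfh-like and 6969 in Th0, and with GFP 3610 in Tfh-like and 5760 in Th0 (log2 -0.58, SE 0.10, edgeR adjusted p = 0.00804). Its relative Chd4, with 12981 in Tfh-like and 14779 in Th0 under Tox2, and 12319 in Tfh-like and 12436 in Th0 under GFP, did not pass (edgeR adjusted p = 0.739). Smarca5, the ISWI motor, fell by 0.47 on the log2 scale (SE 0.10, edgeR adjusted p = 0.0195), the SWI/SNF subunit Smarce1 by 0.39 (edgeR adjusted p = 0.0396) and Brd8, a subunit of the Kat5 acetyltransferase complex, by 0.39 (SE 0.10, edgeR adjusted p = 0.0354). Smarca4, Smarca2 and Arid1a did not pass (edgeR adjusted p = 0.295, 0.585 and 0.154). Sirt6, Setd3, Setd1b and Smarce1 are named to complete the counts, after their values were seen. With DESeq2's test 15 of these 29 genes passed, and Brd8, Crebbp, Dnmt3b, Ezh2, Kdm5b, Phf19, Prmt1, Prmt2, Smarca5, Uhrf1 and the 4 genes just named did not.

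By pairs of libraries, 2 chromatin genes were 2-fold apart between Tfh-like and Th0 with Tox2 (1.6%, against 9.43% of all genes compared), Arid5a higher (0.8%, against 6.56%) and Dnmt3a lower (0.8%, against 2.86%). With GFP there were 3 (2.4%, against 10.9% of all genes), Chd7, Arid5a and Kat6b, all higher, where 7.78% of all genes were higher and 3.11% lower. The lowest folds with GFP were those of Hdac9 (-0.84), Prmt7 (-0.71) and Phf6 (-0.70). Over the 4 pairs of libraries 78 of the 125 genes stayed under 0.5 in size of log2 fold. That share was not counted over all genes compared, so it cannot be called high or low for the chromatin genes.

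Chd7 was the gene whose Tox2 fold differed most between the cultures. Chd7 (chromosome 4, 8690406 to 8867659, plus strand, mm10), a remodeller that acts at enhancers and is mutated in human CHARGE syndrome, had 956 counts with Tox2 and 3451 with GFP in Tfh-like, and 839 with Tox2 and 851 with GFP in Th0. Tfh-like with GFP stood alone and the other 3 libraries were close together. Its log2 fold for Tox2 was -1.89 (-1.99 to -1.78) in Tfh-like and -0.07 (-0.21 to 0.07) in Th0, and its fold for Tfh-like over Th0 was 0.24 (0.11 to 0.38) with Tox2 and 2.06 (1.95 to 2.17) with GFP. The difference of the Tox2 folds, Tfh-like minus Th0, was -1.82 (-1.99 to -1.65), and it was the only one of the 125 at 1 or more in size (0.8%, against 1.92% of all genes in that direction and 3.48% in either). The additive fit has no term for this, and Chd7 passed for neither Tox2 (log2 -1.001, SE 0.39, edgeR adjusted p = 0.157) nor the culture (log2 1.17, SE 0.39, edgeR adjusted p = 0.0726, and 0.0253 to 0.467 over the 9 alternatives). The pattern rests on 1 library, and the difference cannot be tested with 1 library per group. Its relative Chd8 did not share it, with 2150 counts with Tox2 and 1917 with GFP in Tfh-like, and 2700 with Tox2 and 2135 with GFP in Th0.

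Below that limit the other differences, with counting intervals only, were smaller. Hdac9 (0.97, 0.51 to 1.43), Arid5a (0.56, 0.45 to 0.66) and Sirt1 (0.55, 0.25 to 0.85) had the most positive differences of Tox2 folds, Tfh-like minus Th0, and after Chd7 the most negative were those of Tet2 (-0.72, -0.89 to -0.54) and Tet1 (-0.71, -1.002 to -0.41). Sirt1, a nuclear sirtuin, had 361 counts with Tox2 and 261 with GFP in Tfh-like, and 414 with Tox2 and 436 with GFP in Th0, and its low library was Tfh-like with GFP. The median difference of the 125 genes was -0.05, against 0.00 over all genes compared, and 75 of 125 lay below 0. With the length trend removed the median was -0.02. Across the 125 genes the difference had a Spearman correlation of -0.480 with transcript length, and of -0.216 across all genes compared.

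A wider list of other chromatin genes held 111 symbols, some of them older names of genes also in it. Of these symbols 104 were listed and compared, and they gave few calls for Tox2 and more for the culture. With Tox2 3 rose and 0 fell (2.88% and 0%, against 4.07% and 2.74% of all genes compared): Ash1l, a lysine methyltransferase (log2 0.58, SE 0.10, edgeR adjusted p = 0.0294), Rcor1, the scaffold that joins Kdm1a to deacetylases (0.51, SE 0.11, edgeR adjusted p = 0.0409), and Phc3, a subunit of Polycomb repressive complex 1 (0.51, SE 0.11, edgeR adjusted p = 0.0474). For the culture 6 rose and 16 fell (5.77% and 15.4%, against 14.3% and 9.96% of all genes compared). The largest rise was that of the SWI/SNF gene Dpf1 (log2 2.87, SE 0.33, edgeR adjusted p = 0.00198). Dpf1 had with Tox2 227 counts in Tfh-like and 49 in Th0, and with GFP 274 in Tfh-like and 23 in Th0. Those that rose also included Aebp2, an accessory subunit of Polycomb repressive complex 2 (log2 0.67, SE 0.10, edgeR adjusted p = 0.00467), the methyltransferase Nsd3 (0.71, SE 0.11, edgeR adjusted p = 0.00571) and Mbd2, which binds methylated DNA (0.50, SE 0.10, edgeR adjusted p = 0.0135). Those that fell included Hells, a remodeller needed for DNA methylation (-0.83, SE 0.11, edgeR adjusted p = 0.00297), the heterochromatin protein Cbx5 (-0.53, SE 0.11, edgeR adjusted p = 0.014) and the Polycomb-like protein Mtf2 (-0.50, SE 0.10, edgeR adjusted p = 0.0154). Their median log2 fold for Tox2 was 0.01 in Tfh-like and 0.06 in Th0, and for the culture -0.20 with Tox2 and -0.10 with GFP.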

How the data were processed

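The 4 libraries were made from total RNA extracted with Trizol, per the labels' protocols. The deposited tables hold read counts per gene, raw and whole per the file headers and their values, beside the authors' FPKM for each gene, per the file headers. Named in the submitters' processing notes are mm10, featureCounts, Subread, Bowtie2, Trim Galore 0.4.4, MACS2 and edgeR; neither their roles nor annotation or strandedness is stated in the sources used here. Near-identical or overlapping genes can therefore share or lose reads. The tables were already reduced: the second-highest library of every listed gene reached 0.658 CPM or more.

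Counts were analysed in R 4.3.3 with edgeR 4.0.16: TMM factors over all 11027 listed genes, a filter that kept the 10960 genes with 1 CPM or more in some library, and a quasi-likelihood fit of culture and virus to all 4 libraries (1 residual degree of freedom), with Benjamini-Hochberg adjustment over all genes compared. Folds of library pairs are log2 ratios of TMM-normalized CPM with a prior count of 2 and exact 95% binomial counting intervals, which cover counting error only; the difference of 2 folds has a delta-method interval. A count of 0 in a library allows up to 3 counts, or 0.219 to 0.230 CPM. Gene positions and transcript lengths are from GENCODE M21; length trends used the lengths implied by counts and FPKM. The code was tested on simulated data. DESeq2 1.42.0, limma 3.58.1 (voom), other scalings and filters, and the removal of length trends (loess) were alternatives.

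The chromatin genes and the other lists were chosen with earlier results of these data known. Named are every gene that passed for Tox2, the 12 up and 12 down with the largest fold that passed for the culture, a fixed set of genes whatever their values (some of these genes are not reported here), and the 3 highest and lowest of each pair and of the difference at a CPM of at least 5; any other name was chosen after its values were seen (Kdm1a, Kdm3a, Kdm4d, Kdm8, Kat6a and Chd8, and the highest and lowest FPKM).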

Additional observations from a re-analysis of the deposited data

Results flagged for a closer look

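Arid5b had opposite Tox2 folds in the cultures, both with counting intervals that left out 0: -0.24 (-0.35 to -0.14) in Tfh-like and 0.31 (0.18 to 0.44) in Th0, a difference of -0.56. Tet2 had opposite culture folds with the viruses: -0.34 (-0.45 to -0.23) with Tox2 and 0.38 (0.24 to 0.52) with GFP, a difference of -0.72. These differences were not tested, because each group has 1 library. In all, 7 of the 125 chromatin genes had Tox2 folds of opposite sign in the cultures, and 5 had culture folds of opposite sign with the viruses, with all intervals leaving out 0. The others were under 0.5 apart. The share of all genes compared was not counted, so these counts cannot be called high or low for the chromatin genes.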

How the results depend on the processing

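No paired analysis was possible because each group has 1 library and the replicate numbers are only names. Leaving out a library leaves no residual degree of freedom, so the folds of single pairs stand in its place. The chromatin genes that rose with Tox2 numbered 4 as reported, 11 with scaling by the sum of listed counts, 8 with limma-voom, and 1 with length trends or with length and GC trends removed; the 2 that fell numbered 0 under both removals. Kdm6b passed under every setting run. For the culture DESeq2's test gave 9 up and 6 down, against 14 and 15, and 14 of the 29 genes passed under every setting (Arid3a, Arid5a, Arid5b, Chd3, Dnmt1, Dnmt3a, Ezh1, Hdac2, Hdac4, Hdac5, Kat6b, Phf6, Prmt7 and Sirt2). The 1 gene 2-fold higher with Tox2 in Th0 became 0 with DESeq2 size factors, the sum of counts, a prior count of 10 and both removals. The 2 in Tfh-like became 1 with a prior count of 10 or a CPM of at least 5. The 1 gene 2-fold lower in Tfh-like than in Th0 with Tox2 (Dnmt3a) became 0 under both removals, and the 0 genes with a difference of folds of 1 or more in the positive direction became 1 with the sum of counts and both removals. Over all genes, Tox2 calls numbered 746 as reported, 1193 with the sum of counts, 339 with length trends removed, 411 with length and GC trends removed and 492 with DESeq2's test; culture calls numbered 2656, and 1609 with DESeq2's test. Medians of the 125 genes moved by no more than the median half-width of the genes' counting intervals. That half-width is for a single gene and sets no limit for a median over 125 genes. With length trends removed the median Tox2 fold went from 0.04 to -0.02 in Tfh-like and from 0.09 to 0.02 in Th0. With the sum of counts the median culture fold with GFP went from -0.05 to -0.15, and that of all genes compared from -0.01 to -0.11. TMM over the compared genes only and the joint length and GC removal were chosen after seeing the data. The causes of these changes were not tested. Depth limits Kdm4d, Smarcd3, Hdac9 and Hdac11 most.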
